A study of Mus musculus with 2 samples.

Results

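Lymphatic endothelial cells (LECs) line the initial capillaries and the collecting vessels that drain fluid and leukocytes from the skin. Their fate is set by the transcription factor Prox1, and VEGFR3, encoded by Flt4, is the receptor through which they respond to VEGF-C. Capillary LECs carry the hyaluronan receptor LYVE1 and release CCL21, the ligand of CCR7 that guides dendritic cells into the vessel. ACKR2, also known as D6, is an atypical receptor of LECs that takes up and degrades inflammatory CC chemokines without signalling as a classical chemokine receptor does.

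LECs were chosen here by their reads: a barcode had at least 50 CPM (reads of a gene per 1000000 reads of the barcode) of Prox1 plus Mmrn1 and at least 50 CPM of the endothelial genes Cdh5, Pecam1 and Flt4 together, with less than 100 CPM each of Ptprc and Pdgfra, which mark leukocytes and fibroblasts. This gave 117 LECs among 8359 barcodes that passed the cell filter (1.40%), of 8953 in the matrix. The cells came from ear skin of BALB/c WT mice and Ccr2-/- mice with IgE-dependent chronic allergic inflammation (IgE-CAI), collected 3 and 5 days after challenge. Mice of all 4 groups were sensitized with 300 µg of anti-TNP IgE and challenged a day later in the ear skin with 10 µg of TNP-conjugated ovalbumin, so no group was unchallenged. Each genotype and day was 1 pool marked by a hashtag antibody, and all pools went into 1 cDNA library. The study's methods name young adult male mice, and the number of mice behind a pool is not given in the sources used here. With 1 pool per genotype and day, p-values measure only the spread between pools.

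The hashtags put 116 LECs in a pool: 27 from WT mice on day 3 and 17 on day 5, and 35 from Ccr2-/- mice on day 3 and 37 on day 5. Below, 4 values in a row follow this order of pools. The remaining LEC had 1 hashtag read. Summed reads per pool were 1111408, 1190222, 1851230 and 2283273 in the same order, with a median per cell between 29006 and 41813. A few cells weighed heavily. The deepest cell held 33.2% of the LEC reads of WT day 5 and between 10.2% and 12.5% of those of the other pools, and the 3 deepest cells of WT day 5 held 66.8%. That deepest WT day 5 cell had 395381 reads and 14305 CPM of the keratinocyte genes Krt5, Krt14 and Krt15 together. Of the 117 LECs, 12 carried markers of another cell type past a limit set after the values were seen, 11 of them in a pool. They were 3 cells with keratinocyte, 3 with neutrophil, 3 with fibroblast, 2 with pericyte and 1 with macrophage markers. The targeted gene was low where it should be: Ccr2 stood at 941 and 814 CPM in Ptprc-positive leukocytes of WT day 3 and day 5, against 79.8 and 53.6 CPM in those of Ccr2-/- day 3 and day 5.

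The lowest member had 119 CPM of Prox1 plus Mmrn1, the next 129 CPM, the median member 1623 CPM and the highest 14511 CPM. Just outside, 11 barcodes that passed the endothelial, Ptprc and Pdgfra limits had between 2.03 and 30.5 CPM. Of all 204 filtered barcodes with Prox1 plus Mmrn1 past the limit, 74 were below the endothelial limit and 39 were past a Ptprc or Pdgfra limit. Prox1 was read in 84 of the 117 LECs, Mmrn1, which encodes the secreted protein multimerin 1, in 105, and both in 72.

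Lyve1, which the gate did not use, stood at 1795, 2260, 2121 and 5280 CPM in the 4 pools, against at most 19.2 CPM in blood vessel endothelial cells of any pool. Those were 156 Cdh5-positive cells without a Prox1 or Mmrn1 read. Flt4, which helped to pass the endothelial limit, lay between 272 and 357 CPM in LECs and at most 13.6 CPM in blood vessel endothelial cells. Ackr2, named as a marker of these cells, went against the name in WT LECs, at 10.8 CPM on day 3 and 1.68 CPM on day 5. Of the 12 blood vessel markers, some were low in LECs and others were not. Flt1, the VEGFR1 gene, reached at most 16.6 CPM, Ackr1 of venules at most 3.36 CPM and Vwf of the von Willebrand factor at most 30.8 CPM, whereas each was between 63.4 and 850 CPM in blood vessel endothelial cells. Cldn5, a tight junction gene, stood at 1287 to 2337 CPM in LECs against 62.4 to 211 CPM, and Emcn, the gene of endomucin, at 328 to 557 CPM against 262 to 577 CPM. The whole list summed to 2956 to 3556 CPM in LECs and 8387 to 13867 CPM in blood vessel endothelial cells.

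**Figure D1:**
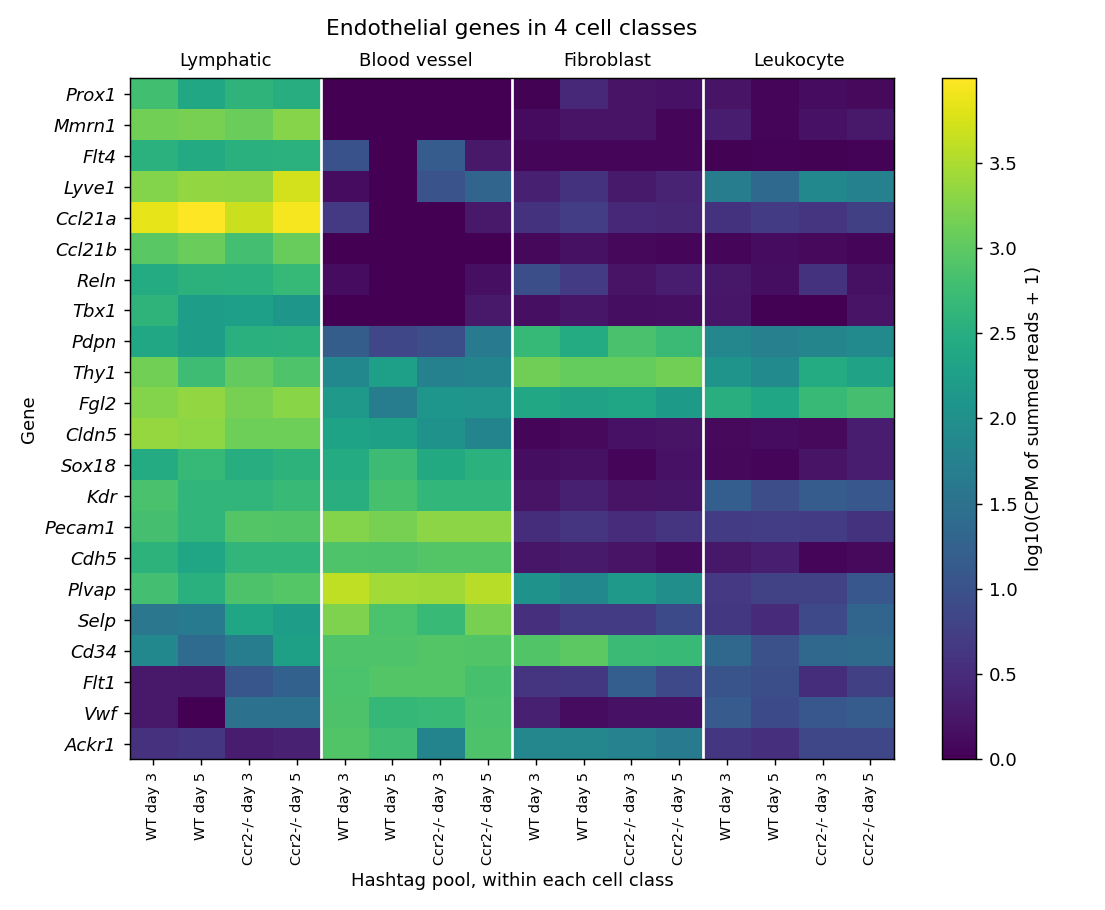
Colour gives log10(CPM of summed reads + 1) of endothelial genes (rows) in the 4 hashtag pools of lymphatic endothelial cells, blood vessel endothelial cells, fibroblasts and leukocytes (columns). Prox1 and Mmrn1, used to choose the cells, lie in the lymphatic columns as the gate requires, and Lyve1, Ccl21a, Reln and Tbx1 follow them, while Flt1, Vwf and Ackr1 stay at or below 30.8 CPM there.

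The gene with most reads among these was the chemokine gene Ccl21a. It stood at 6937 and 9900 CPM in WT LECs on days 3 and 5, at 4823 and 8777 CPM in Ccr2-/- LECs, and at most 3.78 CPM in blood vessel endothelial cells. The genotypes overlapped. Ccl21b, at 924, 1207, 629 and 1160 CPM in the same order, had the same order of pools. Ccl21a (chromosome 4, 42772860 to 42773993, minus strand, GRCm38) and Ccl21b (chromosome 4, 42255767 to 42256432, plus strand) are near-identical copies: over 402 coding bases of the GENCODE transcripts they differed at 2 positions (99.5% identity), T84A and C194T, Ccl21a's base first and counted from the A of the start codon. The stretch around the first difference, coding bases 69 to 108, shows how little separates reads of the copies, with the differing base in capitals:

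Ccl21a: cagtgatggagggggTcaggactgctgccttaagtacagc

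Ccl21b: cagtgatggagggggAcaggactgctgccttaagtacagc

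The share between the copies therefore depends on how reads matching both were counted, and the values of Ccl21a, Ccl21b, Ccl21c, Ccl21d, Gm13304 and Gm10591 are uncertain one by one. All 6 were far lower in blood vessel endothelial cells, and 5 of them, all but Ccl21c, were among the 15 genes with the largest ratio of LECs over blood vessel endothelial cells in the lowest of the 4 pools. The other 10 were Prox1, Mmrn1, Lyve1, Reln (the secreted glycoprotein reelin), Tbx1 (a T-box transcription factor), Sh3gl3, Dtx1 (a regulator of Notch signalling), Slc45a3, Col23a1 (a transmembrane collagen) and Emid1. The gates fixed the place of Prox1 and Mmrn1, since the blood vessel endothelial cells were chosen for having no read of them. These ratios describe the chosen cells and were not tested.

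Single cells differed in these genes. After thinning to 10000 reads, which left 99 LECs, Ccl21a was read in 78.8% of them (95% exact binomial interval 69.4 to 86.4%) and Lyve1 in 71.7% (61.8 to 80.3%), against 2.4% and 4.3% of leukocytes at the same depth. Reln was read in 68.7% and Pdpn, the gene of podoplanin, in 65.7%, beside 0.8% and 14.3% of leukocytes. Without thinning, the shares were 80.2%, 67.2%, 69.8% and 71.6%. Genes of collecting vessels and valves were read in fewer cells. Foxc2, a transcription factor needed for valves, was read in 25.3% (17.1 to 35%) and Cldn11, a tight junction gene of valve cells, in 21.2% (13.6 to 30.6%). Of 116 LECs without thinning, 23 had reads of both Lyve1 and Foxc2, 55 of Lyve1 only, 11 of Foxc2 only and 27 of neither. Foxc2 stood at 96.3, 110, 46.5 and 59.1 CPM in the 4 pools. Both Ccr2-/- pools were below both WT pools for Foxc2, as for 16.0% of all genes tested, and the ratio did not pass the test (adjusted p = 0.804, edgeR).

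The share of LECs was close in the 4 pools, with both Ccr2-/- shares below both WT shares. On day 3 they made up 1.76% of 1537 WT cells (95% exact binomial interval 1.16 to 2.55%) and 1.60% of 2186 Ccr2-/- cells (1.12 to 2.22%). On day 5 they made up 1.63% of 1041 WT cells (0.954 to 2.60%) and 1.58% of 2349 Ccr2-/- cells (1.11 to 2.16%). The mean share was 0.107 percentage points lower in Ccr2-/- mice (two-sided exact permutation p = 0.333, the smallest that 2 pools against 2 allow, so the test could not pass). Among endothelial cells, LECs made up 34.2% and 47.2% in WT day 3 and day 5 and 52.2% and 52.9% in Ccr2-/- day 3 and day 5 (exact permutation p = 0.333). Hashtag staining differed between cell types: 99.1% of LECs, 92.7% of leukocytes and 79.8% of fibroblasts were put in a pool, and the part of this in the shares was not tested.

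**Figure D2:**
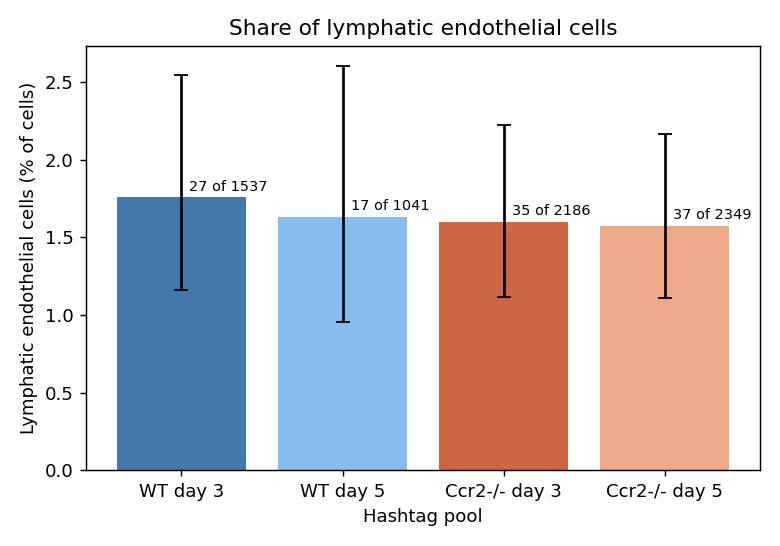
Bars give the share of lymphatic endothelial cells among all cells of each hashtag pool (%), and error bars the 95% exact binomial interval, which covers counting error only. All 4 shares lie between 1.58% and 1.76%, and every interval overlaps every other.

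The comparison of genotypes asked which genes of LECs differ where Ccr2, the receptor that recruits monocytes, is missing. By edgeR's quasi-likelihood test on reads summed per pool, with day in the model, 50 genes rose (0.477%) and 45 fell (0.429%) in Ccr2-/- LECs, together 95 of 10491 tested (0.906%). In levels, both Ccr2-/- pools were above both WT pools for 22.0% of the genes tested and below them for 16.0%. The genes that rose included Ackr2, Mgp, Car4, a group of interferon-induced GTPases and the adhesion gene Selp. Of the genes that fell, 29 had more than 50% of their WT reads in 1 cell, and for 33 of the 45 the cell with most reads was the keratinocyte-marked WT day 5 cell. Without the 11 pooled LECs that carried markers of another cell type no gene passed, although 603 of 10023 had an unadjusted p below 0.05. With library sizes in place of TMM scaling 16 genes passed, of which 4 were higher and 12 lower. A fit of genotype alone on 3 pools called 7 genes without WT day 5 (3 of them among the 95), 11 without Ccr2-/- day 3 (11), 15 without Ccr2-/- day 5 (11) and 92 without WT day 3 (52). The calls below are from the fit of all pooled LECs, and every one of them was lost without those 11 cells. The log2 ratio and adjusted p from that fit stand beside the genes described at length.

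Ackr2 (chromosome 9, 121898355 to 121911074, plus strand) showed the clearest separation of cells. In WT LECs it stood at 10.8 CPM on day 3 (95% exact Poisson interval 5.58 to 18.9) and 1.68 CPM on day 5 (0.203 to 6.07). In Ccr2-/- LECs it stood at 153 CPM on day 3 (136 to 172) and 249 CPM on day 5 (229 to 271). A read of it was found in 1 of 27, 1 of 17, 17 of 35 and 20 of 37 LECs in the same order. Both Ccr2-/- pools thus lay above both WT pools in share, and also in level, as for 22.0% of all genes tested. At 10000 reads per cell, 2.6% of WT LECs (0.1 to 13.5%) and 50.0% of Ccr2-/- LECs (36.8 to 63.2%) had a read, beside 0.1% of leukocytes of either genotype. The log2 ratio was 5.04 (adjusted p = 4.3e-10, edgeR). Without the 11 cells the levels were 11.5, 2.53, 172 and 263 CPM and the log2 ratio was 4.89 (adjusted p = 0.114), and over 19 alternatives, of which 3 left the cells and the fit as they were, Ackr2 kept its direction in 19 and passed in 14, with adjusted p from 2.4e-10 to 0.292. Of the 37 Ccr2-/- LECs with an Ackr2 read, 31 also had a Lyve1 read and 7 a Foxc2 read, without thinning. Among all 72 Ccr2-/- LECs, 53 had a Lyve1 read and 18 a Foxc2 read. In the other cells Ackr2 was low in both genotypes, at 15.8, 21.4, 7.54 and 7.14 CPM in fibroblasts, at 0, 0, 9.63 and 0 CPM in blood vessel endothelial cells and at most 0.834 CPM in leukocytes. Ackr2 starts 2.2 Mb from Ccr2 on the same chromosome. Of 42 genes tested within 5 Mb of Ccr2, 1 passed, Ackr2 itself, and of 571 tested on chromosome 9, 4 passed. Over all genes 95 of 10491 passed (0.906%). The part of this nearness in the Ackr2 values was not tested and cannot be told apart from genotype in these pools.

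Mgp, which encodes matrix Gla protein, an inhibitor of calcification and BMP signalling, stood at 81.0, 99.1, 1936 and 935 CPM. Both Ccr2-/- pools were above both WT pools, as for 22.0% of all genes tested (log2 ratio 3.83, adjusted p = 6.0e-15, edgeR). Mgp passed under 16 of the 19 alternatives, those 3 included. Without the 11 cells it was 85.9, 148, 2091 and 951 CPM (log2 ratio 3.58, adjusted p = 0.102). Reads were in 13 of 44 WT and 34 of 72 Ccr2-/- LECs, and 1 cell held 39.3% of the Ccr2-/- reads. Car4, a membrane-bound carbonic anhydrase, stood at 1.80, 86.5, 594 and 611 CPM in the 4 pools (log2 ratio 4.58, adjusted p = 3.5e-14), with reads in 5 of 44 WT and 33 of 72 Ccr2-/- LECs. Its log2 ratio was 4.43 (adjusted p = 0.401) without the 11 cells. Blood vessel endothelial cells had 1331, 82.1, 1404 and 940 CPM of Car4. Of the 72 Ccr2-/- LECs, 24 had reads of both Mgp and Car4 and 21 of both Mgp and Ackr2.

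**Figure D3:**
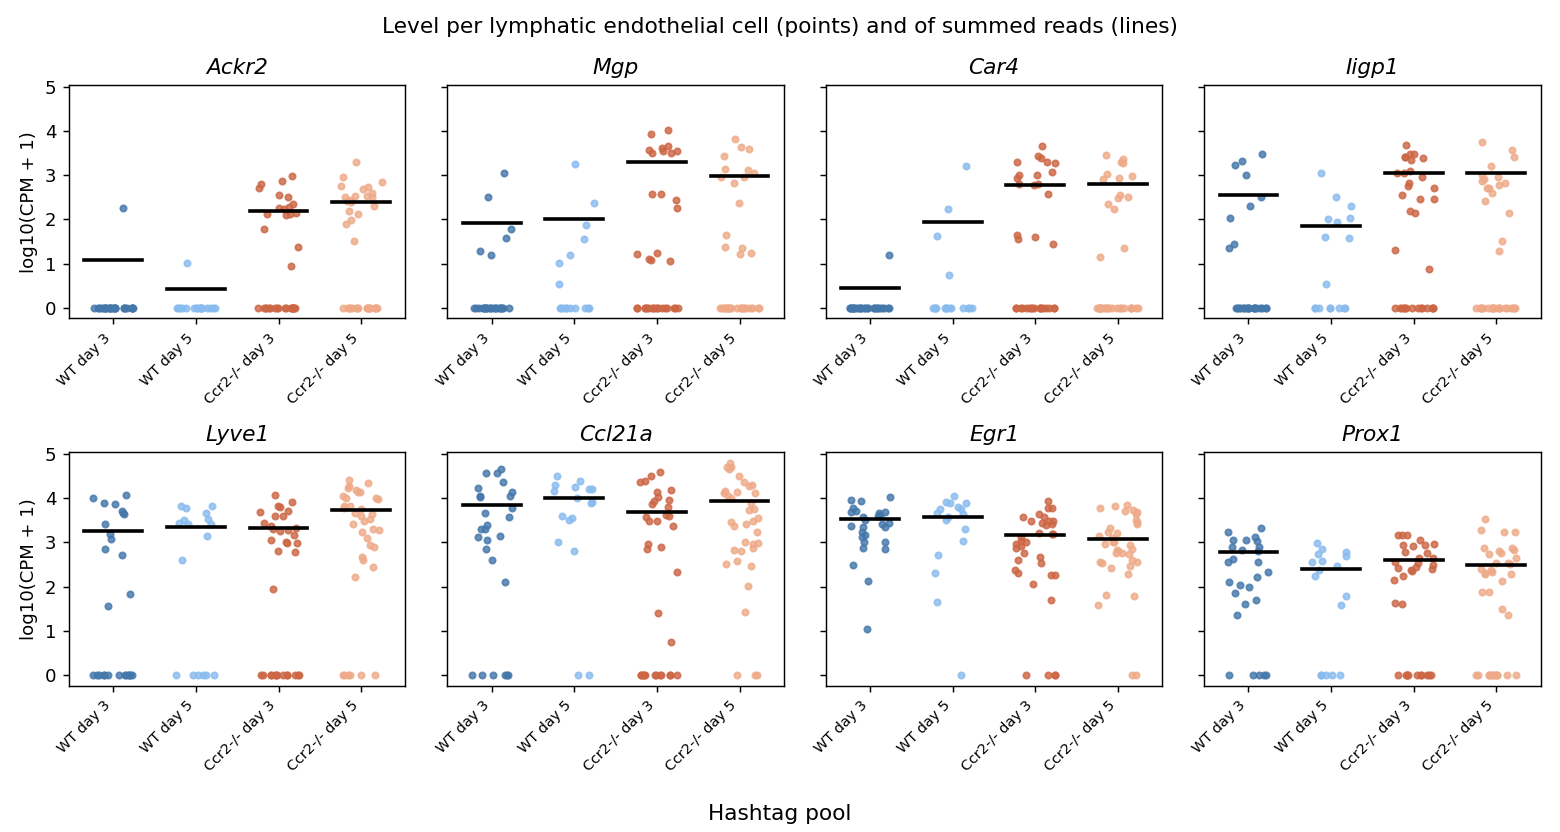
Each point is a lymphatic endothelial cell, at log10(CPM + 1) of the gene named above the panel, and each line is the CPM of the summed reads of its hashtag pool, on the same scale. Ackr2 is at 0 in all but 2 of the WT cells and spread over 37 of the 72 Ccr2-/- cells, while Prox1, Lyve1 and Ccl21a overlap between the genotypes.

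Interferon-induced genes include GTPases that attack intracellular microbes at their vacuoles, among them the guanylate-binding proteins (Gbp genes) and the immunity-related GTPases. In the interferon response list 4 of 18 tested genes rose in Ccr2-/- LECs and none fell, where 0.477% of all genes tested rose. The median log2 ratio was 0.96, beside 0.06 over all genes tested. The 4 were Gbp2, Gbp4, Gbp6 and Iigp1. Iigp1, an immunity-related GTPase, stood at 355, 68.1, 1130 and 1112 CPM (log2 ratio 2.75, adjusted p = 1.7e-07, edgeR). Gbp4 stood at 160, 31.1, 502 and 400 CPM in the same order (log2 ratio 2.55, adjusted p = 2.7e-05). Gbp6 was at 81.0, 4.2, 252 and 124 CPM and Gbp2 at 63.0, 0.840, 115 and 230 CPM. For each of the 4, picked by the test on these same pools, both Ccr2-/- pools were above both WT pools, as for 22.0% of all genes tested. WT day 5 had the lowest level for each. Shares of LECs with a read, without thinning, overlapped between the genotypes for Iigp1 (33.3, 52.9, 60 and 45.9%) and Gbp4 (40.7, 17.6, 51.4 and 27.0%). Both Ccr2-/- shares were above both WT shares for Gbp6 (29.6, 11.8, 48.6 and 40.5%) and Gbp2 (22.2, 5.9, 34.3 and 32.4%). Outside the list, Gbp2b, Tgtp1 and Batf2 also rose. Other interferon-induced genes of the list were low, with Ifit1 at 11.7 to 27.7 CPM, Mx1 at no more than 2.70 CPM and Rsad2 at no more than 0.900 CPM in any pool. Irf1, at 372, 585, 190 and 246 CPM, was among those that did not pass (adjusted p = 0.259). Without the 11 cells the log2 ratios of Iigp1, Gbp4, Gbp6 and Gbp2 were 2.51, 2.29, 2.70 and 3.26, with adjusted p between 0.167 and 0.678.

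In blood vessel endothelial cells Iigp1 stood at 561, 398, 258 and 379 CPM and Gbp4 at 494, 213, 258 and 294 CPM in the 4 pools. A fit of 8 sums tested whether the genotype ratio differed between both endothelial types. It did for 3 of 12234 genes (0.0245%), all lower in LECs and all keratinocyte genes, and not past the threshold for Iigp1 (adjusted p = 0.245) or Gbp4 (adjusted p = 0.246, edgeR).

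Promoter sequence is shown for 3 of the interferon-induced genes that rose. They were chosen because their entries in the RefSeq promoter table (GRCm38.p6) held a motif of interferon-induced genes. Iigp1 was not among the genes with a match, and Gbp4, Gbp6 and Batf2 had no promoter entry. The stretches are the 150 bases before the annotated start, 5′ to 3′ along the gene. Capitals mark matches on either strand to the core of the interferon-stimulated response element (GAAA, any 2 bases, GAAA) and, in Tgtp1, to the gamma-activated site (TTC, any 3 bases, GAA), and the matches in Tgtp1 do not overlap.

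Gbp2, chr3:142620513-142620662, plus strand: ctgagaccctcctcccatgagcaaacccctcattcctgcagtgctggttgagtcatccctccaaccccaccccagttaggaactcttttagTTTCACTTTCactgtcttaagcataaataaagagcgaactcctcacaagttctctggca

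Gbp2b, chr3:142594697-142594846, plus strand: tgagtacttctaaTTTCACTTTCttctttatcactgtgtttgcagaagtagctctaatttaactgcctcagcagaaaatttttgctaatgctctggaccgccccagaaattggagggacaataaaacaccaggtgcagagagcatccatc

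Tgtp1, chr11:48992247-48992396, minus strand: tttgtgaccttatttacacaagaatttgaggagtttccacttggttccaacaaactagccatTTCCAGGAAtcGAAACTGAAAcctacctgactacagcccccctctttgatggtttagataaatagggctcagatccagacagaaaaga

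Over the 250 bases before the start, the first motif was found in 978 of 32851 promoters in the table (2.98%) and the second in 2306 (7.02%). Of the 50 genes that rose 29 had a promoter in the table, and the first motif was in 4 of them, Gbp2, Gbp2b, Tgtp1 and Ddx49, and the second in 3. In the interferon response list, 10 of the 16 genes with a promoter held the first motif. A match is a run of letters and not a bound site. Gbp2 and Gbp2b lie next to each other, and the Gbp genes and Tgtp1 have close relatives whose reads may be shared.

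Among chemokines and scavenger receptors, 2 of 13 tested genes rose, Ackr2 and Ccl7, and none fell (median log2 ratio 0.44), where 0.477% of all genes tested rose. Ccl7, a ligand of CCR2 and other receptors, stood at 211, 31.1, 793 and 253 CPM in the 4 pools (log2 ratio 2.37, adjusted p = 6.2e-05, edgeR; 1.78 and 0.401 without the 11 cells). Of the Ccl7 reads of WT day 3, 81.3% were in 1 cell. Fibroblasts had 1926, 1523, 3605 and 2512 CPM and leukocytes 1790, 516, 2729 and 804 CPM of it, and the part of their RNA was not tested. Ccl2, the main CCR2 ligand, stood at 185, 194, 1890 and 196 CPM and did not pass (adjusted p = 0.0555). Ackr3, the scavenger of CXCL12 and adrenomedullin, was at 297, 194, 346 and 602 CPM (adjusted p = 0.657). Il7, which LECs supply to lymphocytes, lay between 120 and 171 CPM in every pool and at most 2.65 CPM in blood vessel endothelial cells. Ackr4, the scavenger of CCL21 on collecting vessels, was read in 3 LECs, all of WT day 5.

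Of the adhesion and transmigration genes 1 of 17 rose, Selp, and none fell (median log2 ratio 0.51), where 0.477% of all genes tested rose. Selp encodes P-selectin, which endothelial cells hold in granules and show to rolling leukocytes. It stood at 36.9, 45.4, 229 and 167 CPM in the 4 pools (log2 ratio 2.18, adjusted p = 0.0118, edgeR; 1.97 and 0.510 without the 11 cells), against 492 to 1657 CPM in blood vessel endothelial cells. Selp is also a blood vessel marker, and of the 10 markers of that list that were tested 1 passed, Selp itself, with a median log2 ratio of 1.34 beside 0.06 over all genes. The summed level of the list was 3556, 2956, 3095 and 3389 CPM over the 4 pools of LECs, with Esm1 at 0. The part of blood vessel RNA in the Selp result was not tested. Icam1 at 293, 136, 85.9 and 120 CPM and Vcam1 at 7.20, 4.2, 18.9 and 26.7 CPM did not pass. None of 5 tested egress lipid genes passed, among them Spns2, the sphingosine 1-phosphate exporter, at 215, 263, 378 and 409 CPM.

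The 10 genes with the largest rise by the naming rule were AA467197, Zwilch, Ddx49, Loxl4, Adamtsl1, Prep, 3300005D01Rik, Ackr2, Utp20 and Car4. Several rest on few cells. AA467197, Zwilch (a kinetochore gene) and Ddx49 (an RNA helicase) had no read in 44 WT LECs. They were read in 9, 9 and 21 of 72 Ccr2-/- LECs. Only lower bounds can be given for their ratios, against a floor of 3 reads over both WT pools. They were at least 34.3-fold, 35.6-fold and 32.5-fold higher in Ccr2-/- LECs, and these bounds cover counting error of reads only. Adamtsl1, a secreted matrix protein, was at 0, 1.68, 105 and 67.9 CPM in the 4 pools and was read in 25 of 72 Ccr2-/- LECs against 1 of 44 WT LECs. Its log2 ratio was 6.20 (adjusted p = 0.285) without the 11 cells. Other matrix genes among the 50, chosen after their values were seen, were Sparc at 687, 494, 1806 and 3141 CPM and Thbs1 at 48.6, 99.1, 789 and 170 CPM. Their log2 ratios were 1.76 (adjusted p = 0.161) and 4.01 (adjusted p = 0.0563) without the 11 cells. Fibroblasts had between 11547 and 16265 CPM of Sparc.

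The 10 genes with the largest fall by the same rule, which leaves out genes carried by 1 cell, were Fmo2, Kif26a, Thsd1, Gucy1a1, Sipa1l1, Tmem159, Egr2, Rhou, Gstm1 and Gadd45b. Gadd45b, induced by stress and growth signals, stood at 565, 499, 149 and 99.9 CPM (log2 ratio -2.19, adjusted p = 1.8e-04, edgeR; -2.39 and 0.160 without the 11 cells). Thsd1, an endothelial membrane protein, was at 84.6, 122, 10.3 and 17.1 CPM and Gucy1a1, a subunit of the nitric oxide receptor, at 87.3, 68.9, 16.2 and 6.13 CPM. Without the 11 cells the log2 ratio of Thsd1 was -3.21 (adjusted p = 0.319) and that of Gucy1a1 -3.72 (adjusted p = 0.401). In each of these, picked by the test on the same pools, the WT pools were above the Ccr2-/- pools, as for 16.0% of all genes tested.

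Gadd45b and Egr2 belong with immediate early genes, which rise within minutes of a stimulus, tissue digestion included. In the immediate early and heat shock list 2 of 14 tested genes fell in Ccr2-/- LECs, Egr1 and Atf3, where 0.429% of all genes tested fell. None rose, all 14 had a log2 ratio below 0, and the median was -0.81, beside 0.06 over all genes tested. Egr1 stood at 3370.5, 3697, 1462 and 1202 CPM in the 4 pools (log2 ratio -1.49, adjusted p = 0.0105, edgeR; -1.49 and 0.285 without the 11 cells). Atf3 stood at 890, 1876, 642 and 383 CPM (log2 ratio -1.45, adjusted p = 0.041; -1.06 and 0.727 without the 11 cells), with 40.7% of its WT reads in 1 cell. Fos, at 10233, 9595, 6222 and 5889 CPM, did not pass (adjusted p = 0.543). The summed level of the list was 31726 and 30407 CPM in WT day 3 and day 5 and 17148 and 16589 CPM in Ccr2-/- day 3 and day 5. The part of tissue digestion in these values was not tested.

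**Figure D4:**
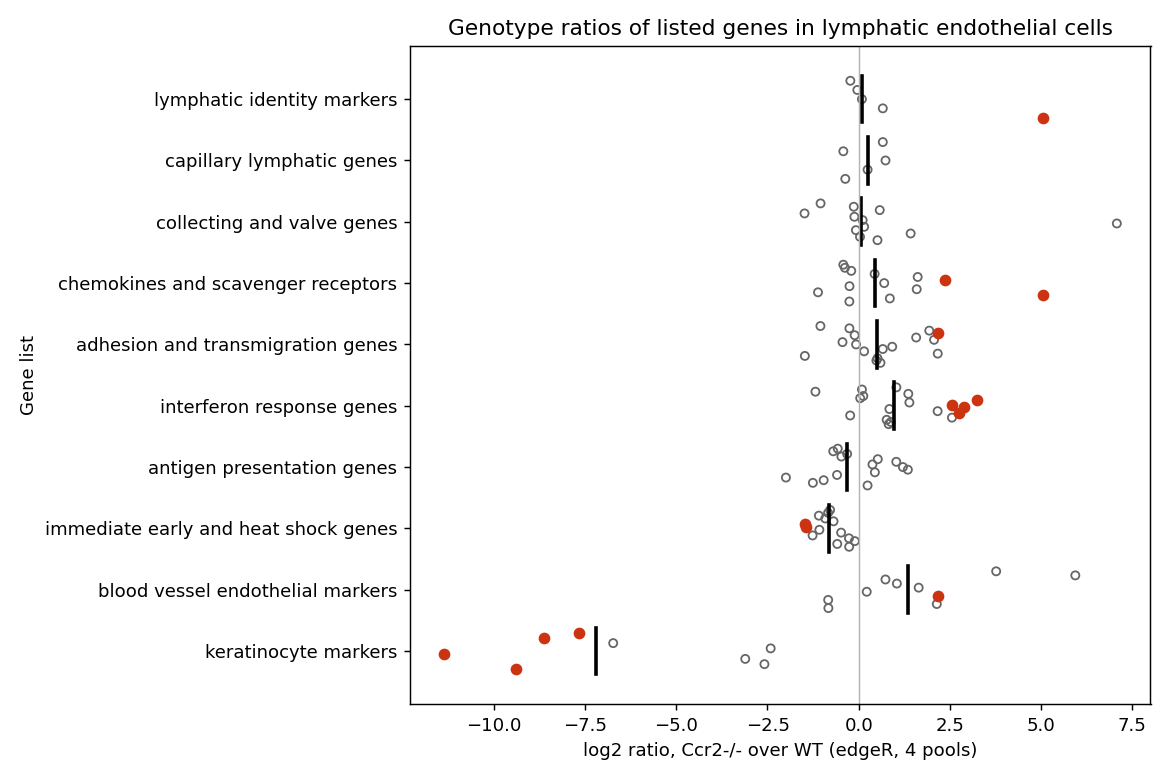
Each circle is a gene of the list named at the left, at its log2 ratio of Ccr2-/- over WT in lymphatic endothelial cells (edgeR, 4 pools), filled red where the adjusted p was below 0.05, with a black line at the list's median. The interferon response list has 4 filled circles to the right and the immediate early list 2 to the left, while the keratinocyte markers reach furthest left, with 86.9% of their reads in 1 cell.

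Prox1 stood at 610, 251, 396 and 312.3 CPM in the 4 pools, and Mmrn1 at 1387, 1495, 1189 and 1828 CPM, given as a description because the cells were chosen by them. Of 13 lymphatic transcription factors none passed, though 12 had a log2 ratio below 0 (median -0.65, beside 0.06 over all genes tested). Among the 12 were Prox1, which the gate used, and Klf4, at 3076, 2439, 2264 and 1490 CPM. None of 14 growth factor receptors and regulators passed, with Kdr, the VEGFR2 gene, at 693, 423, 432 and 505 CPM and Angpt2 at 292, 29.4, 153 and 122 CPM. None of 12 collecting and valve genes, 15 antigen presentation genes, 23 NF-kB, IL-1 and IL-6 response genes, 10 type 2 cytokine and alarmin genes and 12 cell division genes passed. Their median log2 ratios were 0.07, -0.32, -0.08, 0.51 and 1.96 in that order, beside 0.06 over all genes tested. Of the 12 cell division genes, 10 had a log2 ratio above 0. That list summed to 422, 710, 786 and 647 CPM in the 4 pools. Without the 11 cells the sums were 441, 334, 846 and 682 CPM. Mki67, which marks dividing cells, was read in 4 of 44 WT and 8 of 72 Ccr2-/- LECs.

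Markers of other cells differed between the pools. Keratinocyte markers summed to 792 and 5630 CPM in WT day 3 and day 5 and to 44.3 and 12.3 CPM in Ccr2-/- day 3 and day 5. By the test 4 of 8 fell in Ccr2-/- LECs, where 0.429% of all genes tested fell. Without the 11 cells the sums were 40.1, 21.5, 43.5 and 13.2 CPM. Fibroblast markers summed to 892 to 2128 CPM over the pools, with a Col1a1 read in 92.3% of all barcodes of the matrix. Macrophage markers summed to 74.8 to 521 CPM, neutrophil markers to 70.1 to 273 CPM and pericyte and smooth muscle markers to 9.18 to 104 CPM. Mast cell and basophil markers summed to 15.7 to 21.0 CPM, T and NK cell markers to 2.52 to 15.1 CPM and Schwann cell markers to 0.438 to 7.2 CPM. Without the 11 cells the sums of fibroblast, macrophage and neutrophil markers were 905 to 1043, 56.3 to 340 and 38.6 to 60.9 CPM.

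Between days, 6 genes rose (0.0572%) and 11 fell (0.105%) on day 5, together 17 of 10491 tested (0.162%). The genes that fell included the chemokine genes Ccl7, Ccl8 and Ccl9 and genes usual in leukocytes, such as Pf4, Srgn, Cd53, Laptm5 and Fcgr2b. Ccl8 stood at 255, 30.2, 507 and 42.9 CPM (log2 ratio -3.25, adjusted p = 3.9e-07, edgeR), and 1 cell held 87.3% of the reads of WT day 3 and another 93.5% of those of Ccr2-/- day 3. Ednrb, an endothelin receptor, was at 430, 25.2, 102 and 57.8 CPM (adjusted p = 0.022). Of the genes that rose, Krt14, Sfn, Lgals7 and Sostdc1, all expressed in epidermis or hair follicles, had between 87.2% and 96.6% of their WT reads in 1 cell. Without the 11 cells no gene passed, with 279 of 10023 at an unadjusted p below 0.05. DESeq2 gave 11 calls.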

How the data were processed

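The cDNA library and the hashtag library hold counts: the authors' deposited matrix gives reads per gene and barcode, and the hashtag file reads per antibody and barcode. Per the labels, reads were processed with Cutadapt and Bowtie2 on GRCm38.p6. Reads are not molecules, since PCR copies were counted separately, so intervals and floors cover counting error only. The study's methods describe a distribution-based correction that subtracts background reads, and whether the deposited matrix had been through it was not tested. Another 9 hashtag columns were not used.

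Barcodes with over 20% mitochondrial reads or under 200 genes were left out. A barcode went to the hashtag with the highest count over its column total (pseudocount of 1), if that was at least 3 times the next and at least 10 hashtag reads were present. Doublets within a pool were not called. Reads were summed per pool and tested with edgeR 4.0.16 (quasi-likelihood, TMM, filterByExpr, day and genotype, 1 residual degree of freedom, Benjamini-Hochberg, adjusted p below 0.05) in R 4.3.3, with DESeq2 1.42.0 and limma 3.58.1 as alternatives. Genotype differences of lymphatic and blood vessel endothelial cells were compared in 1 fit of 8 sums with a term for each pool. A cell carried markers of another type above 1000 CPM of its genes (10000 CPM for fibroblast genes). Blood vessel endothelial cells also had under 100 CPM of Csf1r and of Rgs5, limits chosen after values were seen. On simulated data with 10491 genes, the genotype test recovered 11 of 100 genes changed 8-fold and 79 of 100 changed 32-fold, with 1 false call among 10291. The simulation used a common dispersion for all genes and, for unchanged genes, the same mean in every pool. It had no day effect and no single deep cells, so its false calls do not measure those in these data.

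Members, gene lists and tests were chosen with earlier results of these data known. Named were all genes of the lymphatic lists, up to 10 called genes each way by size of the log2 ratio (at least 20 CPM on average, the same direction on both days, no cell with over 50% of the reads of the higher group), the 15 largest ratios over blood vessel endothelial cells and the 5 smallest p of the comparison between endothelial types. Positions are from GENCODE M21 (GRCm38), promoters from RefSeq. A result for 1 gene that passed between days is not reported here.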

Additional observations from a re-analysis of the deposited data

Results flagged for a closer look

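The genotype ratio differed between lymphatic and blood vessel endothelial cells for 3 of 12234 genes tested (0.0245%; edgeR, term for cell type by genotype). These were the keratin genes Krt5 and Krt15 and the keratinocyte chemokine gene Ccl27a, with a log2 of the genotype ratio in lymphatic over that in blood vessel endothelial cells of -14.2 (adjusted p = 0.0023), -18.9 (adjusted p = 0.0024) and -21.8 (adjusted p = 0.0178). Krt15 was at 306.8 and 1151 CPM in WT lymphatic endothelial cells on days 3 and 5 and at 0 and 0.438 CPM in those of Ccr2-/- mice, with 1 cell with a read in each pool but Ccr2-/- day 3. Ccl27a was at 89.98 and 236 CPM in WT day 3 and day 5, from 1 cell each, and had no read in Ccr2-/- lymphatic endothelial cells. In blood vessel endothelial cells Ccl27a was at 390 CPM in Ccr2-/- day 3 and at 0 in the other pools. Without the lymphatic endothelial cells that carry markers of another cell type no gene passed, with 433 of 11932 at an unadjusted p below 0.05, and none passed without the deepest cell of each pool (361 of 11794 below 0.05). The next genes by p were Perp and Vwf, and Vwf, at 0.900, 0, 30.8 and 29.8 CPM in lymphatic endothelial cells, did not pass.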

How the results depend on the processing

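The number of lymphatic endothelial cells was 117, and it was 68 with no read of Ptprc and Pdgfra and 72 with a read of both Prox1 and Mmrn1. The difference of their share between genotypes was -0.107 percentage points. It turned to 11.8 points among endothelial cells, to 0.0202 without reads of Ptprc and Pdgfra and to 0.0819 in cells with at least 10000 reads, where with 2 pools against 2 no setting could pass the test. The 95 genotype calls became 63 at a hashtag ratio of 10, 6 without reads of Ptprc and Pdgfra, 40 with both Prox1 and Mmrn1, 56 without the deepest cell of each pool, 16 with library sizes only, 13 with limma on the mean CPM of cells, 0 without a day term (743 at an unadjusted p below 0.05) and, in the alternative added after the data were seen, 0 without the 11 cells with markers of another type. Of the 56, 44 were among the 95. Leaving out each pool gave 7 to 92 calls. The 17 day calls became 10, 3, 9, 0, 0, 11, 1 and 0 at a hashtag ratio of 10, without reads of Ptprc and Pdgfra, with both Prox1 and Mmrn1, without the 11 cells, with library sizes only, with DESeq2, with limma and without a genotype term, and leaving out each pool gave 0 to 48 (0 without WT day 3, 1 without WT day 5, 0 without Ccr2-/- day 3 and 48 without Ccr2-/- day 5). Where the day count was 0, the genes at an unadjusted p below 0.05 numbered 279 to 583. The 3 calls between endothelial types became 73 without a filter on low counts, 41 with DESeq2, and 0 without the deepest cells or without the 11 cells. Among single genes called in the fit of all cells, the genotype ratio turned to 0.74 for Rhou without reads of Ptprc and Pdgfra, to 0.25 for Anxa8 without the deepest cells, and to 0.23 for Apoe and 0.16 for Gstm2 without the 11 cells. The day ratio turned to -4.27 for Krt14, -5.47 for Sfn and -3.52 for Lgals7 without WT day 5 (up to 9.67, 12.01 and 9.01 without WT day 3), and to 0.042 for Ccl9 without reads of Ptprc and Pdgfra (log2). A hashtag ratio of 2, no minimum of hashtag reads and a limit of 100 CPM for Prox1 plus Mmrn1 left the pooled cells as they were and could only repeat the fit. Without those 3 settings, refits of the genes called for genotype gave a call again in 591 cases and none, in the same direction, in 831. The cause of these changes was not tested. The labels gave no replicate pairs of the genotypes, because their replicate numbers name a cDNA and a hashtag library of the same cells. The genotype fit held a term for day, so it compared the genotypes within each day. The fit of both endothelial types did hold a term for each pool.

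With 1 pool per genotype and day, 17 to 37 cells per pool and 1 residual degree of freedom, the simulated recovery of 8-fold changes was 11 of 100, so a gene that did not pass may still differ. The WT day 5 values rest on few deep cells.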
